A study of Mus musculus with 18 samples.

Results

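Expression of 10 genes of the NRF2 pathway and the antioxidant defence was followed in small cell lung cancer (SCLC) cells before and after p53 restoration. The genes were Nfe2l2, Keap1, Gclc, Gclm, Txnrd1, Srxn1, Hmox1, Nqo1, Gpx1 and Sod2, taken by symbol from the 25239 genes of the expression table. All 10 of 10 were in the table and were among the 12828 genes with at least 1 TPM (transcripts per 1000000, a length-corrected share of a sample's transcripts) in at least 3 samples, which were tested. Levels on this scale can be compared between genes. Between samples they are relative to the whole of each sample's RNA, and the rescaling described below moves such comparisons.

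RNA of 18 samples came from 3 mouse tumour cell lines of the class that the study calls Type D and defines by cell death after p53 restoration. Each line (4711-1, 4711-18 and 4716-11) was selected with a guide RNA against β-Gal (sgBgal, the control guide) or with 1 of 2 guides against Ppia, the gene of cyclophilin A (sgPpia#3.2 and sgPpia#4.1). Each culture then received vehicle, ethanol, (Control) or 4-hydroxytamoxifen, 4-OHT, (Restored) for 72 h, which made 6 conditions with 3 samples, 1 from each line. By the study's methods, all the lines lack Rb1 and Rbl2 and carry the Trp53 XTR allele, a gene trap that Cre had turned into the orientation that silences Trp53 and that FlpO-ER, expressed from Rosa26 and activated by 4-OHT, removes. The tumours had been started with adenoviral Cre, each line was grown out of 1 tumour, and the cells with Ppia guides were selected pools in which cyclophilin A was reduced but not absent. No Control culture without the trap and no 4-OHT culture without FlpO-ER was analysed here, so effects of p53 and of 4-OHT itself cannot be told apart. Samples with different guides from 1 line are not independent lines, and p-values measure the spread between these samples.

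NRF2, the product of Nfe2l2, is the transcription factor that turns on antioxidant and detoxifying genes. In unstressed cells KEAP1 binds NRF2 and hands it to a ubiquitin ligase for degradation, and electrophiles or oxidants modify KEAP1 and let NRF2 accumulate. NRF2 then binds, with a small MAF protein, the antioxidant response element in its target genes, which serve glutathione synthesis (Gclc and Gclm), the thioredoxin system (Txnrd1 and Srxn1), heme breakdown (Hmox1) and quinone reduction (Nqo1). Because much of NRF2's regulation acts on the protein, its mRNA level is not a measure of its activity.

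The libraries matched their labels for Trp53 and Ppia. Trp53 ranged from 5.45 to 8.41 TPM over the 9 Control and from 181 to 236 TPM over the 9 Restored samples. Cdkn1a, a p53 target, ranged from 99.4 to 369 and from 1565 to 3806 TPM in these states. Ppia was lower with a Ppia guide than with sgBgal in 12 of 12 pairs of the same line and state. Absolute depth is unknown from TPM, and the steps between low values put the deepest sample at 1.775 times the shallowest. Among SCLC and neuroendocrine markers, Ncam1 (6.90 to 29.7 TPM), Syp (3.03 to 7.12 TPM) and Uchl1 (1.21 to 2.81 TPM) were present throughout, Insm1 reached 3.37 TPM in its highest sample, and Chga, Calca and Dll3 stayed at or below 0.185 TPM. The summed level of 4 leukocyte markers moved with p53 restoration, from 2.95 to 7.38 TPM in Control to 22.6 to 42.6 TPM in Restored samples, mainly through Cd68, while the pan-leukocyte marker Ptprc was at most 0.0814 TPM and the T cell marker Cd3e at most 0.159 TPM. The part of this shift in the restoration results was not tested. No fibroblast marker reached 1 TPM, 1 of 3 endothelial markers did (Pecam1, at most 1.26 TPM), and so did 2 of 3 markers of other lung epithelium (Sftpc, at most 3.21 TPM, and Foxj1, at most 1.17 TPM). The Control library of 4711-18 with sgPpia#3.2 stood apart, with Cdkn1a at 369 TPM against 99.4 to 171 TPM in the other 8 Control libraries, Sesn2 at 37.8 against 6.93 to 29.6 TPM, Slc7a11 at 48.6 against 5.14 to 27.5 TPM and Hmox1 at 386 against 161 to 313 TPM. Its Trp53 level, 5.45 TPM, was the lowest of all. Several results with sgPpia#3.2 that use this library are given with and without 4711-18. Others are given with all lines only, such as the restoration changes of Srxn1, Sod2 and the wider list.

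Before p53 restoration, Hmox1 and Gpx1 were the most abundant of the 10 transcripts and Nqo1 the least. The median over the 9 Control samples was 251 TPM for Hmox1, 244 for Gpx1, 136 for Gclm, 110.0 for Txnrd1, 91.4 for Gclc, 90.6 for Nfe2l2, 60.6 for Srxn1, 42.8 for Sod2, 31.5 for Keap1 and 1.97 for Nqo1. Neighbours in this order had overlapping ranges in every case. In the 9 Restored samples Hmox1 stood apart, since its lowest value, 691 TPM, lay above the highest value of every other gene of the group (481 TPM, for Gclc).

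In GENCODE M21 (GRCm38), the genes lie apart from each other. Nfe2l2 is at chr2:75675513-75704641 (minus strand), Keap1 at chr9:21229730-21239361 (minus), Txnrd1 at chr10:82833951-82897712 (plus) and Srxn1 at chr2:152105516-152111376 (plus). Nqo1 is at chr8:107388225-107403206 (minus), Gpx1 at chr9:108338903-108340343 (plus) and Sod2 at chr17:13006846-13040063 (plus). The submitters' notes name both mm10 (GRCm38) and GRCm39, so these places describe the annotation and were not used to count reads.

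**Figure D1:**
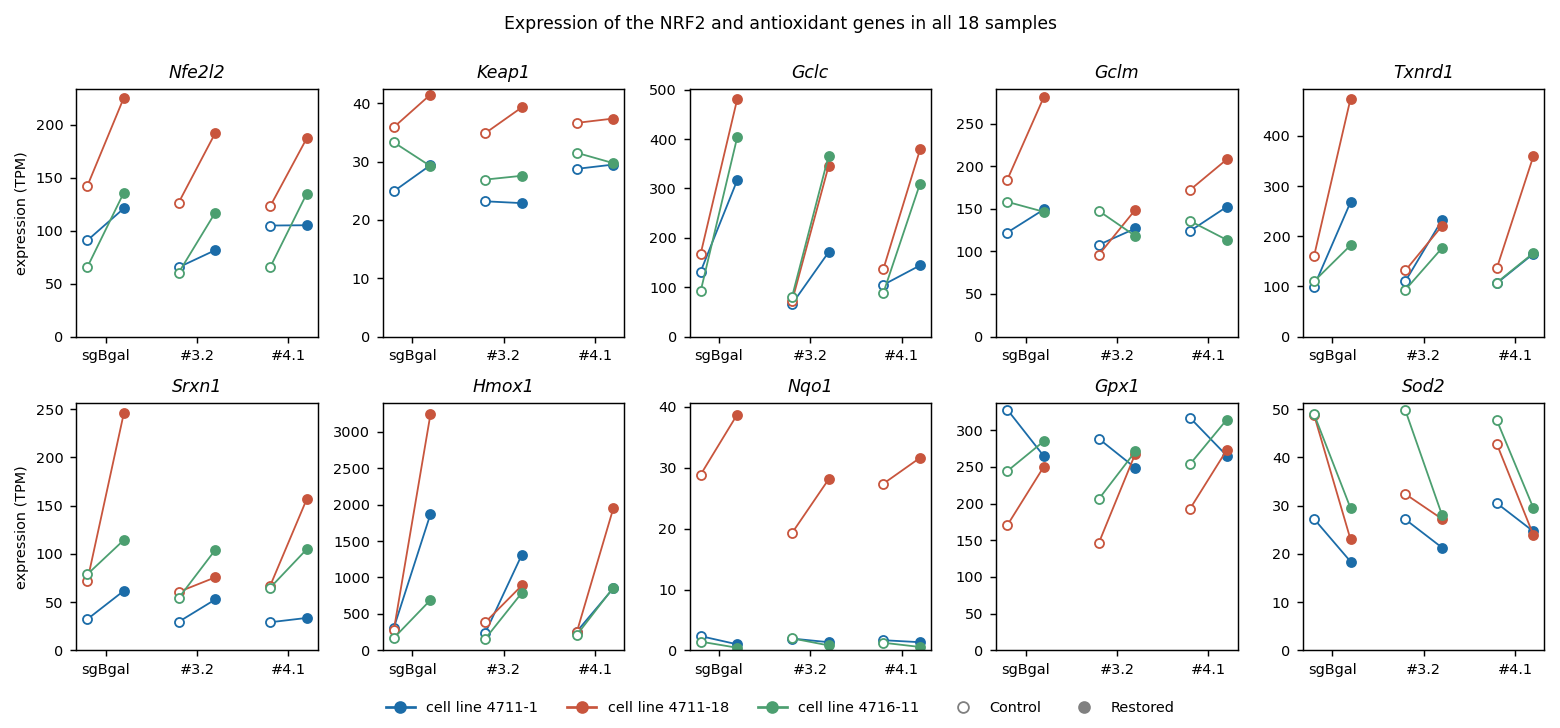
Expression in TPM (vertical axes, each from 0) of the 10 genes in all 18 samples, by guide (horizontal axis), with Control (open circles) and Restored (filled circles) samples of the same cell line joined by a line coloured by cell line. Hmox1, Gclc and Txnrd1 were higher in the Restored sample of every pair, Sod2 was lower in every pair, and Nqo1 was at 19.3 TPM or more in 4711-18 and at 2.34 TPM or less in the other lines.

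A subset of the 10 genes was higher after p53 restoration. With sgBgal, 3 of 10 were called changed (Hmox1, Gclc and Txnrd1, all higher), against 7.64% of all genes tested; with sgPpia#3.2, 2 of 10 (Hmox1 and Gclc), against 5.75%; and with sgPpia#4.1, 2 of 10 (the same genes), against 6.09%. To be called, a gene needed a log2 fold change of 1 or more in size together with an adjusted p (Benjamini-Hochberg) under 0.05 in limma on log2(TPM + 1), the scale of all fold changes here. This scale understates the change of genes with low values. Blocking on the cell line gave shares of 11.0%, 8.61% and 9.18%, with 4, 2 and 2 of the 10 genes called. Across the 9 pairs of Control and Restored samples, 5 of the 10 genes were higher in 9 of 9 pairs (Nfe2l2, Gclc, Txnrd1, Srxn1 and Hmox1), as were 30.8% of all genes tested, and Sod2 was lower in 9 of 9 pairs, as were 12.8%. The median log2 fold change of the 10 genes with sgBgal was 0.48, and that of all genes tested was 0.19. A median-of-ratios rescaling moves the latter to about 0 and the former to 0.26, with 4 of the 10 genes below 0 in place of 2, so rescaled values are given below for Nfe2l2, Keap1, Gclm, Nqo1, Gpx1 and Sod2. The 3 restoration comparisons use separate samples of the same lines. An exact permutation test of 3 samples against 3 cannot give a p below 0.1.

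Among the regulators, Nfe2l2 was moderately higher after restoration and Keap1 was flat. In 4711-1, Nfe2l2 was at 90.6 TPM in Control and 121 TPM in Restored cells with sgBgal, 65.3 and 81.5 with sgPpia#3.2, and 105 and 105 with sgPpia#4.1. In 4711-18, it was at 142 and 225 TPM with sgBgal, 126 and 192 with sgPpia#3.2, and 123 and 187 with sgPpia#4.1. In 4716-11, it was at 65.3 and 136 TPM with sgBgal, 60.2 and 117 with sgPpia#3.2, and 65.2 and 135 with sgPpia#4.1. Within each guide the Control and Restored groups overlapped, because 4711-18 was high in both states. The log2 fold change of Nfe2l2 was 0.71 (standard error, SE, 0.40) with sgBgal, and 0.62 and 0.55 with sgPpia#3.2 and sgPpia#4.1, none of them called (limma adjusted p from 0.269 to 0.448). After rescaling the 3 values were 0.49, 0.42 and 0.37. Keap1 ranged from 23.2 to 36.7 TPM in Control and from 22.9 to 41.5 TPM in Restored samples. Its log2 fold change was 0.08 with sgBgal (95% confidence interval -0.40 to 0.57), 0.06 with sgPpia#3.2 and -0.01 with sgPpia#4.1, and after rescaling the 3 values were -0.13, -0.14 and -0.18, so the sign for Keap1 depended on the scaling.

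Glutathione synthesis showed an unequal pair. GCLC is the catalytic and GCLM the modifier subunit of glutamate-cysteine ligase, the rate-limiting enzyme of glutathione synthesis. Gclc (chromosome 9, 77754535 to 77794485, GRCm38) went from 132 to 317 TPM in 4711-1, from 167 to 481 TPM in 4711-18 and from 91.4 to 403 TPM in 4716-11 with sgBgal. With sgPpia#3.2 it went from 65.8 to 171, from 71.5 to 346 and from 80.4 to 366 TPM in the same order of lines. With sgPpia#4.1 it went from 105 to 144, from 137 to 379 and from 89.2 to 309.9 TPM. Within each guide, the 3 Restored values lay above the 3 Control values (exact permutation p = 0.1 for each guide, two-sided, the smallest value this test can give). The share of all genes tested that separate like this was not counted, and over all guides the Gclc values of the 2 states overlapped. The log2 fold change was 1.64 (SE 0.36, limma adjusted p = 0.00836) with sgBgal, 1.93 (adjusted p = 0.00339) with sgPpia#3.2 and 1.23 (adjusted p = 0.0420) with sgPpia#4.1. The sgPpia#4.1 call was lost after rescaling (1.06, limma adjusted p = 0.0629), with no filter on low values (adjusted p = 0.0743), in a fit of those 6 samples alone (adjusted p = 0.142), and without 4711-18 (adjusted p = 0.219) or 4716-11 (adjusted p = 0.389). Without 4716-11, the log2 fold change was 1.39 (limma adjusted p = 0.153) with sgBgal and 1.81 (adjusted p = 0.12) with sgPpia#3.2, and without 4711-18 it was 1.70 (adjusted p = 0.0559) with sgBgal and 1.77 (adjusted p = 0.0497) with sgPpia#3.2. With the line as a block the limma adjusted p of Gclc was 0.000534 with sgBgal, and 0.00019 and 0.00395 with sgPpia#3.2 and sgPpia#4.1.

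Gclm (chromosome 3, 122245557 to 122270732, GRCm38) did not follow Gclc. It went from 122 to 149 TPM in 4711-1, from 184 to 281 TPM in 4711-18 and from 158 to 146 TPM in 4716-11 with sgBgal. With sgPpia#3.2 it went from 108 to 127, from 95.8 to 149 and from 148 to 118 TPM, and with sgPpia#4.1 from 124 to 152, from 172 to 208 and from 136 to 113 TPM. Gclm was thus higher after restoration in 6 of 6 pairs of the 4711 lines and lower in 3 of 3 pairs of 4716-11. The share of all genes tested that divide between the lines like this was not counted. Its log2 fold change was 0.26 (95% confidence interval -0.34 to 0.86) with sgBgal, and 0.18 and 0.10 with sgPpia#3.2 and sgPpia#4.1, and after rescaling it was 0.04, -0.02 and -0.07, so no direction over the 3 lines can be given.

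In the thioredoxin system, Txnrd1 was higher after restoration in all lines. It encodes the cytosolic thioredoxin reductase. With sgBgal, Txnrd1 went from 99.7 to 268 TPM in 4711-1, from 159.8 to 474 TPM in 4711-18 and from 110.0 to 182 TPM in 4716-11. With sgPpia#3.2 it went from 110.4 to 232, from 132 to 221 and from 93.4 to 176 TPM, and with sgPpia#4.1 from 106 to 165, from 137 to 360 and from 108 to 166 TPM. All 9 Restored values lay above all 9 Control values, as was the case for 8.12% of the genes tested. The log2 fold change was 1.23 (SE 0.34, limma adjusted p = 0.0275) with sgBgal, 0.91 (adjusted p = 0.115) with sgPpia#3.2 and 0.88 (adjusted p = 0.122) with sgPpia#4.1. The call with sgBgal was lost in a fit of those 6 samples alone (adjusted p = 0.0952), without 4711-1 (1.14, adjusted p = 0.232) and without 4716-11 (1.49, adjusted p = 0.0954). With sgPpia#3.2 and without 4711-18, the log2 fold change of Txnrd1 was 0.99 (limma adjusted p = 0.0337), just below the fold needed for a call.

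Srxn1, the gene of sulfiredoxin, which repairs over-oxidised peroxiredoxins, was higher in 9 of 9 pairs but by very different amounts. With sgBgal it went from 32.2 to 61.7 TPM in 4711-1, from 71.6 to 246 TPM in 4711-18 and from 78.7 to 114 TPM in 4716-11. With sgPpia#3.2 it went from 29.6 to 52.7, from 60.6 to 75.7 and from 54.2 to 104 TPM, and with sgPpia#4.1 from 29.1 to 33.6, from 66.7 to 157 and from 64.8 to 105 TPM. The states overlapped within each guide, since 4711-1 was low throughout. The log2 fold change was 1.07 (SE 0.59) with sgBgal, and 0.69 and 0.70 with sgPpia#3.2 and sgPpia#4.1, none of them called (limma adjusted p from 0.255 to 0.533). The replicate block by line called Srxn1 with sgBgal (limma adjusted p = 0.00626), the fourth of the 10 genes.

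Hmox1 had the highest fold change of the 10 genes with sgBgal and sgPpia#4.1, and one close to that of Gclc with sgPpia#3.2. It encodes heme oxygenase 1, which breaks heme down to biliverdin, carbon monoxide and iron, and lies on chromosome 8 (75093621 to 75100589, GRCm38). With sgBgal, Hmox1 went from 313 to 1871 TPM in 4711-1, from 286 to 3241 TPM in 4711-18 and from 171 to 691 TPM in 4716-11. With sgPpia#3.2 it went from 242 to 1314, from 386 to 891 and from 161 to 791 TPM, and with sgPpia#4.1 from 257 to 851, from 251 to 1951 and from 211 to 862 TPM. The 9 Restored values lay above the 9 Control values, as was the case for 8.12% of the genes tested. The range among the Restored samples was wide, from 691 to 3241 TPM. The log2 fold change was 2.70 (SE 0.49, limma adjusted p = 0.00238) with sgBgal, 1.98 (adjusted p = 0.0193) with sgPpia#3.2 and 2.23 (adjusted p = 0.00954) with sgPpia#4.1. Without 4711-1 the limma adjusted p was 0.0691, 0.258 and 0.0875 in that order of guides. With sgPpia#3.2 and without 4711-18, Hmox1 kept its call (2.37, limma adjusted p = 0.0280). The adjusted p was 0.0927 with sgPpia#3.2 without 4716-11, and 0.0774 with sgPpia#4.1 without 4711-18. The log2 fold changes without a line ranged from 1.75 to 3.04.

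Nqo1, which encodes NAD(P)H quinone dehydrogenase 1 and is often used as a read-out of NRF2 activity, changed in opposite directions in different lines. It was at 1.25 to 2.34 TPM in Control samples of 4711-1 and 4716-11, where it was lower in the Restored sample of 6 of 6 pairs (0.427 to 1.34 TPM). In 4711-18 it went from 28.9 to 38.7 TPM with sgBgal, from 19.3 to 28.1 TPM with sgPpia#3.2 and from 27.4 to 31.6 TPM with sgPpia#4.1. With lines that far apart, the log2 fold change over the 3 lines was imprecise, -0.37 with sgBgal (95% confidence interval -3.81 to 3.07, or -0.96 to 0.22 with the line as a block) and -0.17 with either Ppia guide. After rescaling the values were -0.52, -0.33 and -0.32 for sgBgal, sgPpia#3.2 and sgPpia#4.1.

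The genes of the 2 enzymes that act on peroxide and superoxide behaved differently from each other. Gpx1, the gene of the main cytosolic glutathione peroxidase, ranged from 146 to 328 TPM in Control and from 249 to 314 TPM in Restored samples. Its log2 fold change was 0.16 with sgBgal (95% confidence interval -0.40 to 0.71), 0.35 with sgPpia#3.2 and 0.18 with sgPpia#4.1. After rescaling these values were -0.065, 0.15 and 0.0064, and lines moved in opposite directions, as described below. Sod2, the gene of the mitochondrial manganese superoxide dismutase, was lower in the Restored sample of every pair. With sgBgal it went from 27.3 to 18.4 TPM in 4711-1, from 48.9 to 23.0 TPM in 4711-18 and from 49.0 to 29.5 TPM in 4716-11. With sgPpia#3.2 it went from 27.1 to 21.3, from 32.4 to 27.2 and from 49.7 to 28.1 TPM, and with sgPpia#4.1 from 30.5 to 24.7, from 42.8 to 23.9 and from 47.7 to 29.5 TPM. Its log2 fold change was -0.77 (SE 0.27, limma adjusted p = 0.0752) with sgBgal, -0.46 (adjusted p = 0.333) with sgPpia#3.2 and -0.60 (adjusted p = 0.194) with sgPpia#4.1, below the fold needed for a call, and -0.98, -0.66 and -0.77 after rescaling.

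**Figure D2:**
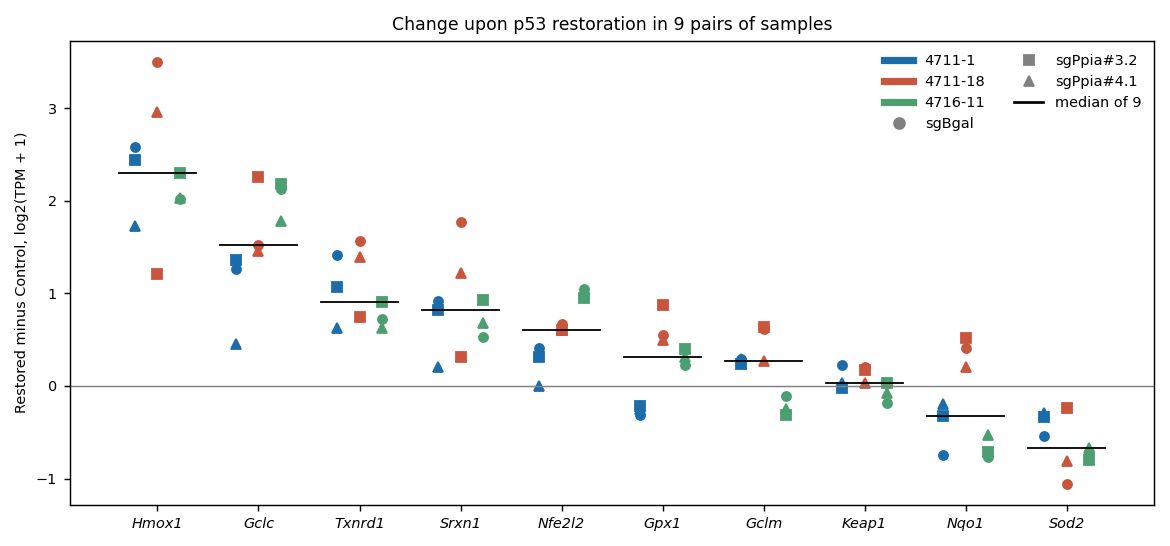
Difference between the Restored and the Control sample in log2(TPM + 1) (vertical axis) for each of the 9 pairs, by gene (horizontal axis, ordered by the median, shown as a bar), with cell lines by colour and guides by symbol. Hmox1, Gclc, Txnrd1, Srxn1 and Nfe2l2 lie above 0 in 9 of 9 pairs and Sod2 below 0 in 9 of 9, whereas Gpx1, Gclm and Nqo1 divide by cell line.

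The promoter windows that could be read were searched for the letters of the antioxidant response element. The core TGACNNNGC was searched on both strands of RefSeq windows of 300 bases (250 before to 50 after a transcription start, GRCm38.p6), which covered 8 of the 10 genes with 10 windows. It occurred in the windows of 4 of the 8 genes, and in 14.0% of the 27025 genes with a window. The core was in windows of Nfe2l2, Txnrd1 (1 of its 3 windows), Srxn1 and Gclm and was not found in those of Keap1, Nqo1, Gpx1 or Sod2, which says only that these letters are not in those windows. Of the 5 genes higher in 9 of 9 pairs, 3 had a window and 3 of these 3 held the core, as did 1 of the 5 other genes with a window. This is a description of a few windows with no test. The stretches are shown because they put the genes with a core beside each other, Gclm, whose direction differed between lines, among them. The core is in capitals, each is written 5′ to 3′ on the minus strand, and they lie at chr2:75704885-75704913, chr10:82859104-82859132, chr2:152105542-152105570 and chr3:122245413-122245441 in the order given.
Nfe2l2: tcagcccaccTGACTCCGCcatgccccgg
Txnrd1: cgtgtcagaaTGACAAAGCaaaaatccag
Srxn1: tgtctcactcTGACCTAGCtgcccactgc
Gclm: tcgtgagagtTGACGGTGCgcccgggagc

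A wider list of 77 genes of the same pathways was counted beside the 10. Of these, 76 were in the table and 73 were tested. With sgBgal 6 were called higher and 2 lower, with sgPpia#3.2 5 higher and 0 lower, and with sgPpia#4.1 5 higher and 1 lower; all genes tested were called at the shares given above. The median log2 fold change of the list with sgBgal was -0.00, below the 0.19 of all genes tested. None of the 8 regulators (Nfe2l1, Bach1, the small MAF genes, Cul3, Rbx1 and Sqstm1), 12 thioredoxin and peroxiredoxin genes or 5 genes of heme and iron handling was called with any guide. With 5.75% to 7.64% of all genes called, groups this small would hold few or no called genes. The absence of calls is thus no result about these roles.

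With sgBgal, sgPpia#3.2 and sgPpia#4.1, 8, 5 and 6 of the 73 tested genes were called, against 7.64%, 5.75% and 6.09% of all genes tested. They were listed under detoxification, glutathione use, NADPH supply and p53-linked redox control, and no role was tested. The last role was listed for its link to p53, and 2 of its 6 tested genes were called with each guide. Sesn2, a stress-induced inhibitor of mTORC1 signalling that is a known p53 target, ranged from 6.93 to 37.8 TPM (median 15.0) in Control and from 58.6 to 202 TPM (median 93.5) in Restored samples, with a log2 fold change of 3.25 (SE 0.57, limma adjusted p = 0.00183) with sgBgal. Aldh4a1, an enzyme of proline breakdown, ranged from 8.66 to 18.0 TPM in Control and from 28.5 to 82.8 TPM in Restored samples (log2 fold change 1.91 with sgBgal). Ephx1, the microsomal epoxide hydrolase, had medians of 224 TPM in Control and 789.5 TPM in Restored samples, Osgin1, an oxidative stress-induced growth inhibitor, 148 and 468 TPM, and Gsto1, an omega-class glutathione transferase, 819 and 1869 TPM. These 5 genes were called with all 3 guides and were higher in 9 of 9 pairs. Akr1b8, an aldo-keto reductase, was higher in 9 of 9 pairs and was called with sgBgal (log2 fold change 1.04). It was close to the fold threshold with sgPpia#3.2 (0.86, limma adjusted p = 0.0622) and sgPpia#4.1 (0.97, adjusted p = 0.0351). Idh1, the cytosolic isocitrate dehydrogenase that makes NADPH, was called lower with sgBgal (-1.27) and sgPpia#4.1 (-1.20). With sgPpia#3.2 it was at -0.83, and its medians were 238 TPM in Control and 106 TPM in Restored samples. Mgst3, a microsomal glutathione transferase, was called lower with sgBgal (-1.03) and was at -0.63 with sgPpia#3.2 and -0.69 with sgPpia#4.1. With the replicate block, 11, 6 and 8 genes of the list were called with sgBgal, sgPpia#3.2 and sgPpia#4.1, in place of 8, 5 and 6. The added calls were in detoxification (5 in place of 3 with sgBgal, 3 in place of 2 with sgPpia#3.2), glutathione (3 in place of 2 with sgBgal, 2 in place of 1 with sgPpia#4.1) and p53-linked redox control (3 in place of 2 with sgPpia#4.1). The shares of all genes called rose too, to the 11.0%, 8.61% and 9.18% given above.

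Other core parts of the pathway were not called with any guide. Gsr, the gene of glutathione reductase, was higher in 9 of 9 pairs by a mean of 0.28 over the guides on the log2 scale, from a median of 227 TPM in Control to 258 TPM in Restored samples. Slc7a11, the cystine transporter subunit, ranged from 5.14 to 48.6 TPM in Control and from 4.55 to 65.0 TPM in Restored samples. Txn1, the gene of thioredoxin itself, was lower in 8 of 9 pairs (mean log2 fold change -0.54), as was Prdx1, a peroxiredoxin (-0.28). Sod1, Cat, Bach1, an NRF2 antagonist, and Nfe2l1, a relative of Nfe2l2, had mean log2 fold changes between -0.17 and 0.21.

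**Figure D3:**
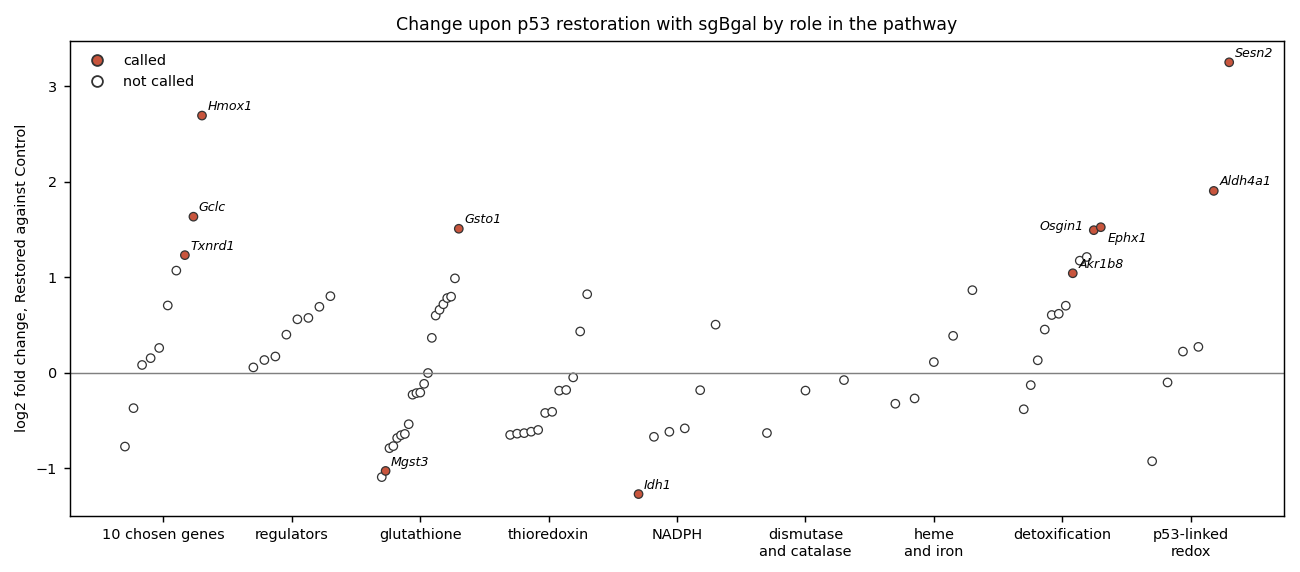
Log2 fold change on the log2(TPM + 1) scale of Restored against Control cells with sgBgal (vertical axis) for the 10 genes and for the 73 tested genes of the wider list by role (horizontal axis), with called genes filled and named. Called genes were few in each role, as among all genes tested (7.64% called). None of the regulators or thioredoxin genes of the wider list was called, and Sesn2 and Hmox1 were the highest.

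The Ppia guides were compared with sgBgal to ask whether less cyclophilin A altered these genes. No gene of the 10 was called with either guide in either state, and neither was any other of the 12828 genes tested (0.0% called). At an unadjusted p under 0.05, limma had 311 genes for sgPpia#3.2 in Control and 154 in Restored cells, and 27 and 68 genes for sgPpia#4.1. Of the 10 genes 1 was among them, Gclc with sgPpia#3.2 in Control cells. With the replicate block, 2 genes, 1 gene, 0 and 0 genes were called in these 4 comparisons, (0.0156%, 0.0078%, 0.0% and 0.0%), none of the 10. At an unadjusted p under 0.05 the block had 1628, 1108, 162 and 424 genes, with 1, 3, 0 and 1 of the 10 among them (Gclc with sgPpia#3.2 in Control cells, Hmox1, Txnrd1 and Srxn1 with sgPpia#3.2 in Restored cells, and Gclc with sgPpia#4.1 in Restored cells, all lower). Ppia itself was not called either without the block (log2 fold change from -1.51 to -0.44). The same sgBgal samples serve both guides, so the guides' values are set side by side without a measure of likeness.

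On the TPM scale the median difference between a Ppia guide and sgBgal over all genes was from -0.09 to -0.04 in the 4 comparisons, and rescaling moved it to about 0. The median over the 10 genes was -0.20 in Control and -0.39 in Restored cells with sgPpia#3.2, and -0.05 and -0.21 with sgPpia#4.1. After rescaling these medians were -0.11, -0.28, -0.0090 and -0.12 in the same order. Without 4711-18 the median in Restored cells was -0.17 with sgPpia#3.2 and -0.14 with sgPpia#4.1, and in Control cells with sgPpia#4.1 it was 0.0078. On the TPM scale, over 3 lines and 2 states, 5 of the 10 genes were lower with sgPpia#3.2 in 6 of 6 pairs (Gclm, Gclc, Nfe2l2, Keap1 and Srxn1), as were 16.6% of all genes tested, and 2 of the 10 were lower with sgPpia#4.1 in 6 of 6 pairs (Gclc and Srxn1), as were 6.88%. With sgPpia#4.1, Gpx1 was higher in 5 of 6 pairs and Keap1 and Sod2 in 4 of 6. Gclc had a log2 difference of -0.79 with sgPpia#3.2 in Control cells (95% confidence interval -1.57 to -0.02) and of -0.50 in Restored cells (-1.27 to 0.27). With sgPpia#4.1 it had -0.21 (-0.98 to 0.56) and -0.62 (-1.39 to 0.15). For Srxn1 in Restored cells the differences were -0.68 (-1.95 to 0.58) and -0.54 (-1.81 to 0.72), for Hmox1 -0.73 (-1.78 to 0.33) and -0.52 (-1.57 to 0.54), and for Txnrd1 -0.45 (-1.18 to 0.28) and -0.41 (-1.14 to 0.32). With the block the interval was -1.38 to -0.21 for Gclc with sgPpia#3.2 in Control cells and -1.21 to -0.03 with sgPpia#4.1 in Restored cells, and in Restored cells with sgPpia#3.2 it was -1.25 to -0.11 for Srxn1 (limma adjusted p with the block from 0.297 to 0.969). Without 4711-18 the sgPpia#3.2 difference was -0.59 for Gclc in Control cells, and in Restored cells it was -0.51 for Gclc, -0.18 for Srxn1, -0.16 for Hmox1 and -0.12 for Txnrd1. Without 4711-1 the sgPpia#4.1 difference in Restored cells was -0.36 for Gclc, -0.21 for Hmox1 and -0.26 for Txnrd1, and the sgPpia#3.2 difference there was -0.31 for Gclc. Without 4716-11 the Hmox1 difference in Restored cells was -1.19 with sgPpia#3.2 and -0.93 with sgPpia#4.1. These differences thus varied with the lines included. Intervals of this width do not show that the guides and sgBgal act alike.

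**Figure D4:**
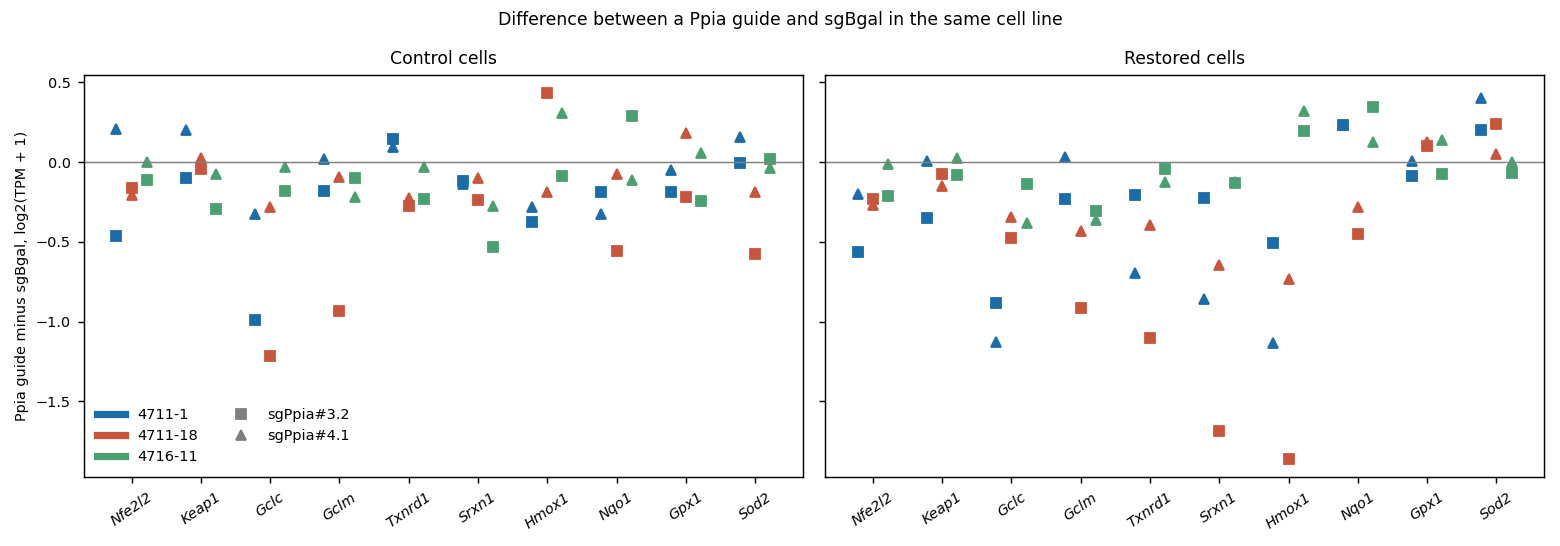
Difference in log2(TPM + 1) between a Ppia guide and sgBgal in the same cell line (vertical axis, shared) for the 10 genes (horizontal axes) in Control (left) and Restored (right) cells, with lines by colour and guides by symbol. All points of Gclc lie below 0 in both states, and in Restored cells the lowest points, of Hmox1 and Srxn1, are those of 4711-18 with sgPpia#3.2.

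The p53 response was also compared between guides, as the difference between 2 restoration changes. None of the 10 genes was called with either guide, nor was any gene tested (0.0% called), with 31 genes for sgPpia#3.2 and 18 for sgPpia#4.1 at an unadjusted limma p under 0.05. The Hmox1 response was smaller by 0.72 with sgPpia#3.2 (log2 difference -0.72, 95% confidence interval -2.20 to 0.77) and by 0.46 with sgPpia#4.1 (-0.46, -1.95 to 1.03). In 4711-18 the Hmox1 response was 3.50 with sgBgal, and 1.20 and 2.96 with sgPpia#3.2 and sgPpia#4.1. In 4711-1 it was 2.58, 2.44 and 1.72 in the same order, and in 4716-11 it was 2.01, 2.29 and 2.02. The sgPpia#3.2 difference therefore rested on 4711-18, and without that line it was 0.07 for Hmox1 and 0.15 for Srxn1, whose difference over the 3 lines was -0.39. In that line the sgPpia#3.2 Control library is the one that stood apart, with the highest Hmox1 of the Control samples, and its part in the difference was not tested. For Gclc the difference in response was 0.30 (95% confidence interval -0.79 to 1.39) with sgPpia#3.2 and -0.40 (-1.49 to 0.69) with sgPpia#4.1. The former also rested on 4711-18 (0.10 in 4711-1, 0.74 in 4711-18 and 0.04 in 4716-11) and was 0.074 without that line. The latter was -0.81 in 4711-1, -0.06 in 4711-18 and -0.35 in 4716-11, and -0.20 without 4711-1. Without 4711-1 the sgPpia#4.1 difference in response was -0.27 for Hmox1, and without 4716-11 it was -0.70.

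Gclm was looked at separately because a noncoding transcript annotated to it holds exact matches to both Ppia guides. Of its 7 transcripts in GENCODE M21, 1 does, Gclm-202, a processed transcript of 762 bases, and no transcript of the other 9 genes does. Both matches lie in its exon 3 of 3, inside Gm6061, a transcribed processed pseudogene at chr3:122256728-122257219 on the same strand. The sites are shown because they are the same letters as in Ppia, with the NGG motif that Cas9 needs next to the target in capitals.
sgPpia#3.2 site at chr3:122256839-122256858 and, in exon 3 of Ppia, at chr11:6418237-6418256: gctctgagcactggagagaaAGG
sgPpia#4.1 site at chr3:122256929-122256948 and, in exon 4 of Ppia, at chr11:6419125-6419144: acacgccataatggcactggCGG

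Gclm expression with the guides was not called different from that with sgBgal. With sgPpia#3.2 Gclm was lower in 6 of 6 pairs, with a log2 difference of -0.40 (95% confidence interval -1.01 to 0.20) in Control and of -0.48 (-1.09 to 0.12) in Restored cells. The largest gap was in 4711-18, where Gclm was at 95.8 TPM against 184 TPM in Control and at 149 TPM against 281 TPM in Restored cells. Without 4711-18 the differences were -0.14 and -0.27. With sgPpia#4.1 Gclm was lower in 4 of 6 pairs, with differences of -0.10 (-0.70 to 0.50) and -0.26 (-0.86 to 0.35). Leaving out 1 line gave -0.16 (without 4711-1) to -0.037 (without 4716-11) in Control and -0.40 (without 4711-1) to -0.17 (without 4711-18) in Restored cells. Whether DNA was cut at these sites was not measured here. Gm17494, a gene on the opposite strand, overlaps Gclm by 14775 bases, and Keap1 (Gm16754) and Txnrd1 (Gm38560) have such neighbours too. No source used here states that reads were counted by strand, so reads of these pairs cannot be told apart. Txnrd1 also overlaps Eid3, a protein-coding gene on the same strand, by 1305 bases, which counting by strand would not separate. How reads of stretches that Gclm-202 shares with Ppia were assigned is not known either.

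Some of the 10 genes were called different between the 3 cell lines, whatever the guide. Against 4711-1, 4711-18 had 2 of the 10 genes called (Nqo1 and Srxn1, both higher), against 8.93% of all genes tested, and 4716-11 had 1 (Srxn1, higher), against 6.82%. Between 4716-11 and 4711-18, 1 of the 10 was called (Nqo1, lower in 4716-11), against 8.96%. Nqo1 was at 19.3 to 38.7 TPM in the 6 samples of 4711-18 and at 0.427 to 2.34 TPM in the 12 samples of the other lines, with no overlap. The log2 difference was 3.52 (SE 0.19, limma adjusted p = 7.92e-09) from 4711-1. Srxn1 was at 29.1 to 61.7 TPM in 4711-1, 60.6 to 246 TPM in 4711-18 and 54.2 to 114 TPM in 4716-11. Its log2 difference from 4711-1 was 1.33 (SE 0.19) in 4711-18 and 1.12 in 4716-11. Nfe2l2 and Keap1 were both higher in 4711-18 than in 4711-1, by 0.79 (limma adjusted p = 0.000389) and 0.50 (adjusted p = 0.000156), below the fold needed for a call. Hmox1 was lower in 4716-11 than in 4711-18 by a log2 difference of -0.97 (adjusted p = 0.00364), and this passed the fold threshold when sgBgal Control (-1.02), sgPpia#3.2 Restored (-1.13) or sgPpia#4.1 Control (-1.12) was left out. Each line is 1 tumour, so these differences are about these lines.

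The size of the p53 response was also compared between lines, with the 3 guides of a line as its replicates. The SD, SE and p-values of this comparison thus measure the spread between guides within lines, not between independent lines. Gpx1 was called in 4711-18 against 4711-1 (against 2.81% of all genes) and in 4716-11 against 4711-1 (1.7%), and Nqo1 in 4716-11 against 4711-18 (3.32%), by limma adjusted p under 0.05 alone. Gpx1 went from 328 to 265, from 288 to 249 and from 317 to 265 TPM in 4711-1 with sgBgal, sgPpia#3.2 and sgPpia#4.1. In 4711-18 it went from 170.4 to 250.3, from 146 to 268 and from 193 to 273 TPM, and in 4716-11 from 244 to 285, from 206 to 271 and from 254 to 314 TPM. The Gpx1 response was therefore -0.26 ± 0.05 (SD, n = 3 guides) in 4711-1, 0.64 ± 0.20 in 4711-18 and 0.31 ± 0.09 in 4716-11, and the Restored levels of the lines lay closer together than the Control levels. The difference was 0.90 (SE 0.13, limma adjusted p = 0.00286) for 4711-18 and 0.57 (adjusted p = 0.0418) for 4716-11, both against 4711-1. The first was not called without sgBgal (0.92, adjusted p = 0.188) or sgPpia#4.1 (0.97, adjusted p = 0.131). The second was not called under a pseudocount of 0.1 (adjusted p = 0.0627), rescaling (adjusted p = 0.119), a filter of 1 TPM in all samples (adjusted p = 0.0692), or without sgBgal (adjusted p = 0.503), sgPpia#3.2 (0.181) or sgPpia#4.1 (0.472). In these settings its size stayed between 0.52 (rescaling) and 0.58 (without sgBgal).

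The Nqo1 response was -0.42 ± 0.29 in 4711-1, 0.38 ± 0.16 in 4711-18 and -0.67 ± 0.12 in 4716-11 (SD, n = 3 guides). The difference between 4716-11 and 4711-18 was -1.05 (SE 0.24, limma adjusted p = 0.0331), and the call was lost with rescaling (-0.92, adjusted p = 0.0582), with no filter (adjusted p = 0.0547), and without sgBgal (-0.98, adjusted p = 0.414) or sgPpia#4.1 (-1.21, adjusted p = 0.235). Nfe2l2 had a response of 0.24 ± 0.21 in 4711-1, 0.62 ± 0.04 in 4711-18 and 1.01 ± 0.05 in 4716-11. The difference between the last and the first was 0.77 (SE 0.18, limma adjusted p = 0.0503), and with rescaling it was 0.72 (adjusted p = 0.0345). The Gclc response was 1.03 ± 0.50, 1.74 ± 0.45 and 2.03 ± 0.21 in the same order of lines, and no difference between lines was called for it. In bulk RNA, fewer cells with a transcript and less of it per cell cannot be told apart in any of these comparisons.

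The genes whose pattern was most like that of Gclm and Nfe2l2 were found by Pearson's r of log2(TPM + 1) over the 18 samples, which share lines, guides and states. For Gclm they were Tmem128 (r = 0.92), Nom1 (0.90) and Spns1 (0.88). For Nfe2l2 they were Rnf34 (0.98), Ppm1f (0.96) and Man2a1 (0.95). With the means of the 6 conditions removed, they were Rpf1 (0.91), Ddx51 (0.90) and Tmem128 (0.90) for Gclm, and Tmtc4 (0.98), Nudt12 (0.98) and Rnf34 (0.97) for Nfe2l2. None of the other 9 genes was among the 3 most like either gene.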

How the data were processed

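The authors deposited 1 table of TPM values for 25239 genes in 18 samples, made from bulk RNA-seq, and every column has the same sum. The submitters' processing notes name bcl2fastq 2.17, HISAT2, mm10 and GRCm39, and the counter and annotation are not given in the sources used here. Columns were assigned to samples by title, and 0 value columns were left unused. TPM keeps no absolute depth, so no counting interval is given.

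Values were analysed as log2(TPM + 1) with limma 3.58.1 in R 4.3.3, after a filter that kept 12828 genes reaching 1 TPM in 3 or more samples. Restoration and guide comparisons came from 1 fit of the 6 conditions, and cell line comparisons from a fit with condition and line. Calls required a p under 0.05 after Benjamini-Hochberg adjustment with a log2 fold change of 1 or more in either direction, and differences in response at the adjusted p alone. Permutation tests were exact and two-sided. The code was tested on simulated data. Python 3.11.15, numpy 2.4.6, scipy 1.17.1 and pandas 2.3.3 made the summaries.

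Same-numbered samples come from 1 cell line. Deviations from condition means correlated within lines (mean r = 0.73 over 45 pairs, lowest 0.58), and the line was used as a replicate block in an alternative. Further alternatives used median-of-ratios rescaling, 0.1 as the pseudocount, no filter, a filter of 1 TPM in all samples, trend and robust options, the compared groups alone, and leaving out lines or conditions.

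The 10 genes and the lists were chosen with earlier results of these data known. The text names all 10, the called genes of the wider list (at most 12, by mean fold change), 8 further pathway genes whatever their values, Trp53, Cdkn1a and Ppia, and the 3 genes most like Gclm and Nfe2l2. The comparison of responses between lines was added after the data were seen. Guide sequences from the supplement served only to locate matches. The letters printed come from GENCODE M21 transcripts and RefSeq promoter windows (GRCm38.p6). Hmox1 and Gclc had no entry among the windows. A marker of the cell type lists is not reported here.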

Additional observations from a re-analysis of the deposited data

Results flagged for a closer look

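A limma interaction test, added after the data were seen, called differences in p53 response between cell lines for Gpx1 and Nqo1. For Gpx1 they were 4711-18 against 4711-1 (log2 difference 0.90, SE 0.13, limma adjusted p = 0.00286) and 4716-11 against 4711-1 (0.57, SE 0.13, adjusted p = 0.0418). For Nqo1 it was 4716-11 against 4711-18 (-1.05, SE 0.24, adjusted p = 0.0331). The 3 guides of each line were its replicates in this test, so these p-values do not measure the spread between independent lines. Each call was lost under some of the alternatives given above. Gpx1 was lower after restoration in 3 of 3 pairs of 4711-1 and higher in 3 of 3 pairs of each other line.

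In 3 further cases every pair of a line moved one way and every pair of another line the opposite way, without passing the limma interaction test. The share of all genes tested that divide between lines in this way was not counted, so neither these cases nor Gpx1 are shown to be unusual in it. For Gclm the difference was -0.50 (adjusted p = 0.416) in 4716-11 against 4711-1 and -0.73 (adjusted p = 0.131) in 4716-11 against 4711-18. For Nqo1 it was 0.80 (adjusted p = 0.103) in 4711-18 against 4711-1, where Nqo1 lay near 1 TPM in 4711-1.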

How the results depend on the processing

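Of 1066 values recomputed under an alternative, 960 kept their direction and their side of the threshold, or stayed within 1.5 times for counts, and 15 reversed; the causes were not tested. Median-of-ratios rescaling reversed Keap1 (-0.13 with sgBgal, -0.14 with sgPpia#3.2), Gpx1 with sgBgal (-0.065), Gclm (-0.020 with sgPpia#3.2, -0.073 with sgPpia#4.1) and Nfe2l2 in 4716-11 against 4711-1 (0.052). It moved the all-gene calls with sgBgal from 701 higher and 279 lower to 479 and 391, with sgPpia#3.2 from 570 and 168 to 413 and 243, and with sgPpia#4.1 from 552 and 229 to 414 and 296. Leaving out 4711-18 reversed Gpx1 with sgBgal (from -0.044 to 0.39 over the lines left out), Gclm with sgPpia#3.2 (-0.042 to 0.43) and the sgPpia#3.2 response differences of Hmox1 (-1.22 to 0.072) and Srxn1 (-0.78 to 0.15). Leaving out 4716-11 reversed Nqo1 (-0.52 to 0.097 with sgPpia#3.2, -0.36 to 0.0052 with sgPpia#4.1) and Keap1 with sgPpia#4.1 (-0.026 to 0.032). Leaving out sgBgal Control or sgPpia#4.1 Control reversed Nfe2l2 in 4716-11 against 4711-1 (-0.15 to 0.091 over the conditions left out).

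Of the 10 genes, the number called upon restoration was 1 to 2 with sgBgal, 0 to 2 with sgPpia#3.2 and 0 to 1 with sgPpia#4.1 when a line was left out, and 1 with sgPpia#4.1 under rescaling, no filter or the compared groups alone. With a filter of 1 TPM in all samples, which removes Nqo1, 1 was called in 4711-18 against 4711-1 and 0 in 4716-11 against 4711-18, where leaving out a condition gave 1 to 2. For responses between lines, leaving out a guide gave 0 to 1 called in 4711-18 against 4711-1, 0 in 4716-11 against 4711-1 and 0 to 1 in 4716-11 against 4711-18. The count for 4716-11 against 4711-1 was 0 with a pseudocount of 0.1 or 1 TPM in all samples and 2 with trend and robust options, and that for 4716-11 against 4711-18 was 0 under rescaling, no filter or 1 TPM in all samples. The replicate block called 4 of the 10 with sgBgal, adding Srxn1 (1.07), and 1177 genes rather than 781 with sgPpia#4.1; it changed no other call among the 10 genes. Absolute depth is unknown, so no counting error can be given for low values such as those of Nqo1.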
